A study of Drosophila melanogaster with 4 samples.

Results

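The regions described here are the scattered H3K9me3 clusters on arm 3R of Drosophila melanogaster, the right arm of chromosome 3, away from its centromere end and its tip. Trimethylation of lysine 9 of histone H3 was mapped by chromatin immunoprecipitation and sequencing (ChIP-seq) in nuclei of adult heads. All 4 samples came from wild-type Oregon-R flies labelled as mixed adults and kept in population cages, and the labels do not give their sex. They were 2 ChIP libraries, each with its own input library. Heads pooled from many flies were sieved from whole adults and fixed with formaldehyde, so every cluster is an average over the neurons, glia, muscle, fat and other cells of the head. Separate collections or chromatin preparations are not named for the replicates, and their spread may therefore be technical.

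Members were chosen by position alone. They lay wholly beyond the first 2 Mb of the 3R sequence and before position 27605053, which is 300 kb before its end (FlyBase release 5). Clusters touching 2480001 to 2860000 or 12470001 to 12810000 were left out. These intervals hold the Antennapedia complex and the bithorax complex, the homeotic gene clusters that set segment identity along the fly body. Replicate 1 kept 491 of the 588 clusters it had on 3R and of its 5083 in all, and replicate 2 kept 412 of 507 and of 4595. A further list, deposited for the whole series and here named the combined set, kept 1060 of 1338 and of 7929. The homeotic intervals took out 33 clusters of each replicate by different splits, 17 and 16 in replicate 1 against 19 and 14 in replicate 2, and 83 and 76 in the combined set. What remained was 24.9 Mb of sequence.

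H3K9me3 is the histone mark of constitutive heterochromatin. It is written by methyltransferases such as Eggless and Su(var)3-9 and bound by heterochromatin protein 1, and in flies it covers the repeat-rich sequence around centromeres. Away from that sequence, on the gene-rich arms, it is known as small islands, often over transposon insertions. Genes and repeats under the clusters were not examined here.

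The arm carried a sparse, uneven scatter of short clusters rather than any continuous block. Replicate 1 had 19.7 clusters per Mb and replicate 2 had 16.6 (18.1 ± 2.24, SD, n = 2). They covered 4.42% and 3.69% of the interval (4.05% ± 0.51), or 1099 and 919 kb. The combined set had 42.6 clusters per Mb and covered 9.33%. Replicate 1 listed 1.19 times as many clusters as replicate 2 here and 1.11 times as many over all sequences, so part of each difference in density below is a difference in the length of the lists. Depth is unknown, since the files hold no read counts. An exact permutation test over 2 libraries cannot reach a threshold and none was run, and the comparisons are set against the replicate spread alone.

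Clusters were narrow and alike in width in both replicates. Median widths were 1887 and 1917 bp in replicates 1 and 2 (1902 ± 21.2 bp). From the first to the last quartile the widths ran from 1569 to 2464 bp in replicate 1 and from 1576 to 2479 bp in replicate 2. The narrowest member measured 1301 bp in each replicate, and no cluster of any sequence was below 1301 bp in replicate 1, 1242 bp in replicate 2 or 1001 bp in the combined set. Whether shorter stretches were filtered out is not stated. Members under 3 kb made up 84.1% and 84.0%. Only 17 members of replicate 1 and 11 of replicate 2 reached 5 kb, and the widest measured 8785 and 7756 bp. The widest 10% of the members held 21.7% and 21.1% of the covered sequence.

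Scores, which are the authors' deposited values on a scale that is not stated, were as narrowly spread. The replicates had median scores of 0.60 and 0.62, and the combined set had 0.42. Between 0.4 and 0.8 lay 84.1% and 86.4% of the members of the replicates. Wider clusters tended to score higher, with a Spearman rho between width and score of 0.60 across the 491 clusters of replicate 1 and 0.67 across the 412 of replicate 2. Width and score come from the same reads, and neighbouring clusters are not independent.

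A small group stood above this scatter. A score of at least 1 was reached by 15 members in replicate 1 and 21 in replicate 2, and 11 of each met a cluster of the other replicate that also reached 1 (these were picked out after their values were seen). Among those of at least 5 kb, a pair had scores above 1.5 in every list. One ran from 3521646 to 3529313 in replicate 1 (7668 bp, score 1.91) and from 3521651 to 3529406 in replicate 2 (7756 bp, score 1.87), where it was both the widest and the highest-scoring member. The combined set gave it 8002 bp and a score of 1.90. The other ran from 26899828 to 26907509 in replicate 1 (7682 bp, score 1.80) and from 26899739 to 26907449 in replicate 2 (7711 bp, score 1.80), with 7787 bp and 1.79 in the combined set. Their start and end positions thus differed between replicates by less than 100 bp, against median differences of 221 and 217 bp for the starts and ends of all pairs of clusters that met a single partner.

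Several others of this group were shorter or lower. At the proximal edge, a cluster from 2005945 to 2008022 scored 1.65 in replicate 1, and its partner from 2005515 to 2008010 scored 1.67 in replicate 2. Beyond the first homeotic interval, one from 2905736 to 2908594 scored 1.27 and its partner from 2905714 to 2908657 scored 1.52. The 3 that followed along the arm, starting in replicate 1 at 9759138, 10460355 and 11031776, scored 1.13, 1.09 and 1.15 in replicate 1 and 1.05, 1.05 and 1.23 in replicate 2. A cluster beyond the second homeotic interval, from 12981625 to 12984844, scored 1.12 and 1.18. Farther out, those starting at 13882393, 22945176 and 25321772 scored 1.22, 1.02 and 1.20 in replicate 1 and 1.25, 1.15 and 1.04 in replicate 2. Members with a score of at least 1 had median widths of 3777 and 3602 bp in the replicates.

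The very highest score of replicate 1 was not of this kind. It was 3.17, for a cluster of 1444 bp from 15569999 to 15571442 that had no partner in replicate 2 and scored 1.89 in the combined set. Likewise, 4 of the 5 highest scores of the combined set belonged to clusters under 2 kb found in neither replicate. These scores were 3.61 (10933069 to 10934070), 3.07 (8320208 to 8322172), and 2.20 for each of 5108257 to 5109339 and 22385506 to 22386506. The clusters measured 1002, 1965, 1083 and 1001 bp, against a median of 1779 bp in the combined set. The nearest cluster of replicate 1 was 34.2, 5.99, 29.2 and 109 kb away from them. The fifth was the 8002 bp cluster at 3521560 to 3529561.

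Members of the replicates lay close to both edges of the interval, but their clusters before the proximal edge did not. The first member of replicate 1, from 2001777 to 2003586, scored 1.58 and had no partner in replicate 2. That of replicate 2, from 2005515 to 2008010, scored 1.67 and met the next member of replicate 1. The last clusters before the edge, 1851542 to 1853440 in replicate 1 and 1851876 to 1853193 in replicate 2, scored 0.62 and 0.55. Toward the tip the last members scored 0.72 and 0.68, and the first clusters beyond, from 27617714 and 27617683, scored 0.56 and 0.60.

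Spacing along the arm was strongly skewed. The median gap from the end of a cluster to the start of the next was 18.3 kb in replicate 1 and 19.6 kb in replicate 2 (19.0 ± 0.96 kb), while the mean gaps were 48.2 and 57.9 kb. Gaps of at most 5 kb made up 26.8% and 24.0% of all gaps, and those of at most 10 kb made up 36.7% and 35.2%. At the other end, 71 gaps of replicate 1 and 79 of replicate 2 reached 100 kb. These were 14.5% and 19.3% of the gaps but took up 55.7% and 64.5% of the interval. In the combined set the median gap was 6.04 kb, and 58.1% of its gaps were at most 10 kb.

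**Figure D1:**
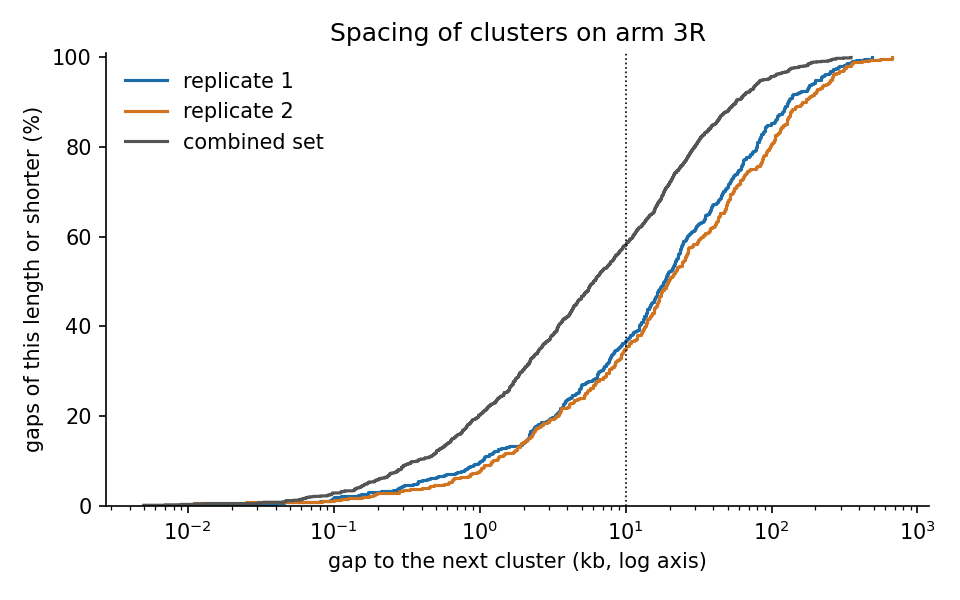
Cumulative share (%) of the gaps between successive clusters on 3R against gap length (kb, log axis), for replicate 1, replicate 2 and the combined set; the dotted line marks 10 kb. The replicate curves run close together with medians of 18.3 and 19.6 kb, and that of the combined set lies to the left with a median of 6.04 kb.

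Close neighbours formed runs, defined as 3 or more successive clusters with gaps of at most 10 kb. Replicate 1 had 39 runs with 153 clusters (31.2% of its members) and replicate 2 had 27 runs with 115 (27.9%). Most runs were small, with 31 and 21 of them holding 3 or 4 clusters and only 8 and 6 holding at least 5. Their median span was 15.2 and 18.1 kb, and together they spanned 2.85% and 2.23% of the interval. The largest held 9 clusters in each replicate. In the combined set 59.4% of the clusters lay in 107 runs, of which the largest held 34 clusters over 141 kb (17199996 to 17341199).

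Clusters in runs were close to isolated ones in width and score. Those in runs had median widths of 1931 and 1930 bp in the replicates, against 1849 and 1907 bp for isolated clusters, those more than 50 kb from both neighbours (44 and 52 members). Median scores were 0.60 and 0.63 in runs and 0.55 and 0.61 for isolated clusters. The share found in the other replicate was 65.4% in runs against 52.3% for isolated clusters in replicate 1, with Wilson 95% intervals of 57.5% to 72.4% and 37.9% to 66.2%. In replicate 2 the order was the other way, at 67.0% against 73.1% (57.9% to 74.9% and 59.7% to 83.2%), so the replicates gave no common direction.

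Of the runs, 16 of replicate 1 overlapped a run of replicate 2 and 17 of replicate 2 overlapped a run of replicate 1, which is 41.0% and 63.0% of them. In each replicate a single run held no cluster found in the other. The overlapping runs made up 16 domains of 10.6 to 81.1 kb (median 23.5 kb), which together spanned 475 kb, or 1.91% of the interval. They held 80 clusters of replicate 1 and 84 of replicate 2, or 16.3% and 20.4% of the members.

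These domains differed in how closely the replicates matched within them. They were picked by overlap between the replicates, so part of the matching inside them is set by that choice. The domain at 4090381 to 4124731 held 7 clusters in each replicate, and each of them had a partner. Its widest cluster in replicate 1, from 4103755 to 4108689, measured 4935 bp and scored 0.74, and the matching cluster in replicate 2, from 4103626 to 4107020, measured 3395 bp and scored 0.89. Coverage of this domain was 57.7% and 55.7%, and in the combined set it was 85.4%. The domain at 21093794 to 21129605 held 9 clusters in each replicate, and all 9 of replicate 1 and 7 of replicate 2 had a partner. Its first cluster in replicate 2 was 7405 bp wide and scored 0.78, and it met a pair of clusters in replicate 1 of 2709 and 4014 bp, which both scored 0.69. Within a run, then, the replicates could place the boundaries between clusters differently while marking the same stretch.

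The longest domains lay at 17204359 to 17284597 (80.2 kb) and 25315032 to 25396171 (81.1 kb). The first held 9 and 13 clusters in the replicates and 19 in the combined set, and was 29.5% ± 3.79 covered. The second held 11 and 10 in the replicates and 18 in the combined set, and was 26.9% ± 4.92 covered. By contrast, the domain at 16851796 to 16866484 was short and nearly filled, at 93.9% in replicate 1 and 75.1% in replicate 2. It held the widest member of replicate 1, 8785 bp from 16854055 to 16862839 with a score of 0.77, which replicate 2 gave as a pair of clusters of 2696 and 4902 bp with scores of 0.89 and 0.71. Domains lay in every 5 Mb section of the interval, 4, 2, 6, 2 and 2 of them from the proximal section outward.

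Density in 500 kb windows varied many times over along the arm, and the replicates varied together. Over the 49 windows with at least 250 kb available, replicate 1 ran from 2 to 44 clusters per Mb with a median of 18, and replicate 2 from 2 to 44 with a median of 14. Coverage ran from 0.327% to 9.77% in replicate 1 and from 0.584% to 8.72% in replicate 2. The Spearman rho of density between the replicates was 0.86 across these windows, given as a description, since the windows share both libraries. Of the 10 densest windows of each replicate, 8 were the same windows. The 10 densest windows of replicate 1 held 38.4% of its clusters in the 49 windows, and those of replicate 2 held 40.8%. Replicate 1 had the higher count in 31 windows, replicate 2 in 9, and they were equal in the other 9.

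**Figure D2:**
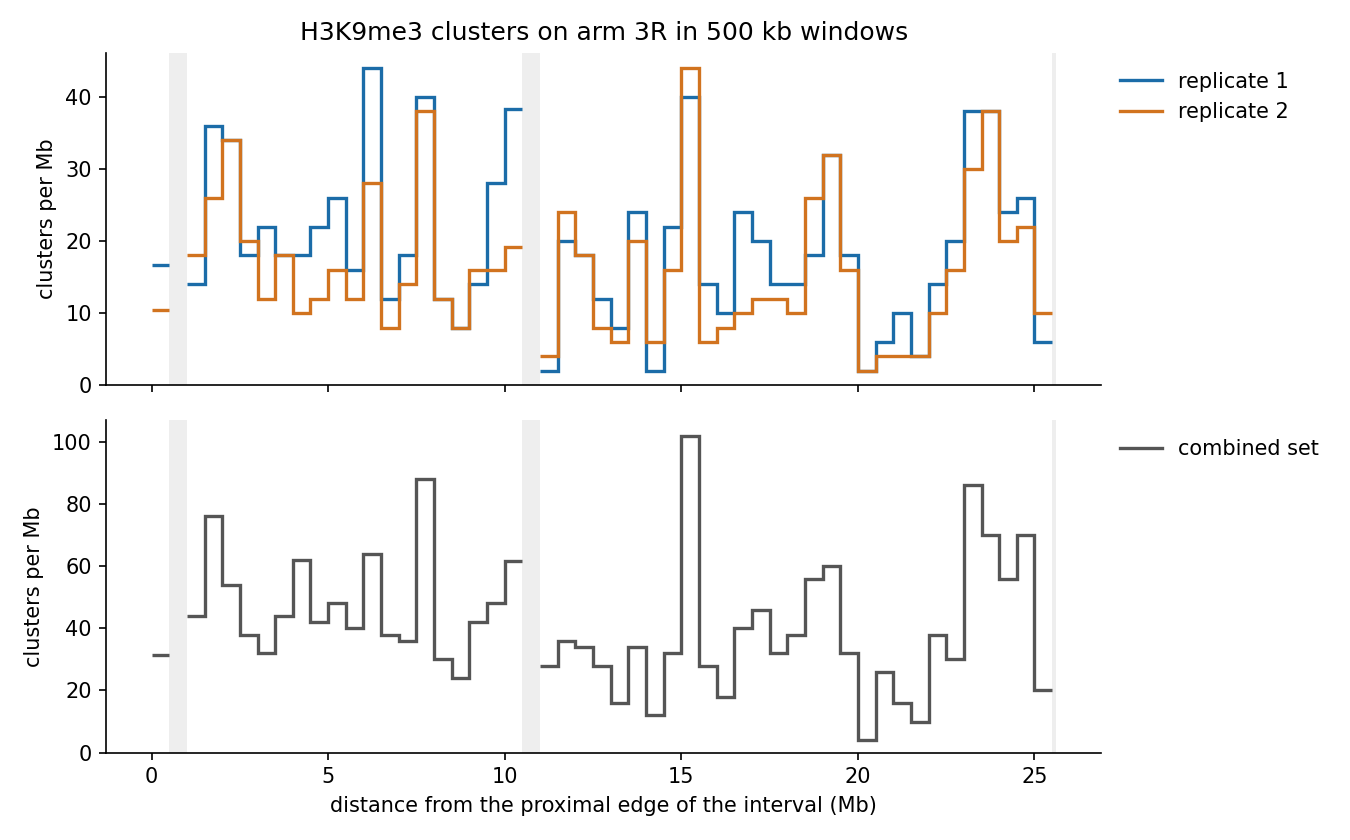
Clusters per Mb in 500 kb windows against distance from the proximal edge of the interval (Mb), for the 2 replicates (upper panel) and the combined set (lower panel, own scale); grey bands are 3 windows with under 250 kb available. Both replicates range from 2 to 44 clusters per Mb, with many of the peaks and low stretches at the same places.

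By mean coverage, the densest windows were 25500001 to 26000000 (9.02% ± 1.05), 4000001 to 4500000 (8.86% ± 0.20), 9500001 to 10000000 (8.37% ± 0.07), 17000001 to 17500000 (8.18% ± 0.32) and 3500001 to 4000000 (7.85% ± 0.40). Successive values in this order differed by at most 0.489 percentage points. The order of the replicates was not the same, so no full ranking can be given. The window at 4000001 was above those at 9500001, 17000001 and 3500001 in each replicate. That at 3500001 was the lowest of these windows in each. In cluster number the window at 8000001 to 8500000 led in replicate 1, with 22 clusters against 14 in replicate 2, and that at 17000001 led in replicate 2, with 22 against 20 in replicate 1. The latter also led in the combined set with 51. The window at 25500001 held 19 in each replicate.

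The sparsest windows were low in both replicates. Their values differed more in proportion than those of the densest, except at 23500001 to 24000000. Coverage was 0.465% ± 0.17 at 13000001 to 13500000 and 0.582% ± 0.36 at 22000001 to 22500000. It was 0.732% ± 0.05 at 23500001 to 24000000, 0.885% ± 0.45 at 16000001 to 16500000 and 1.45% ± 0.84 at 23000001 to 23500000. These windows held 1 to 5 clusters in replicate 1 and 1 to 3 in replicate 2. The combined set had 2 clusters at 22000001 to 22500000 and 5 at 23500001 to 24000000, but it listed 14 at 13000001 to 13500000.

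Intervals without a cluster in either replicate took up much of the arm. There were 68 such intervals of at least 100 kb, adding up to 12.7 Mb or 50.9% of the interval. The longest, from 22277635 to 22767676, measured 490 kb. Those from 12984903 to 13366084 and from 16187162 to 16562484 measured 381 and 375 kb, and those from 23764846 to 24118417 and from 19600307 to 19947986 measured 354 and 348 kb. Inside these 5 intervals the combined set had 6, 1, 2, 1 and 3 clusters, covering 0.349% to 2.07% of their length. Of the 22 intervals of at least 200 kb, 0 were without a combined cluster.

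At a scale of 100 kb the contrast was sharper. Of 249 windows, 67 held no cluster midpoint in either replicate and 11 held at least 5 in both. By mean coverage the first was 4100001 to 4200000, with 11 clusters in replicate 1 and 8 in replicate 2 and coverage of 28.2% and 24.3%. Next came 17200001 to 17300000, with 11 and 14 clusters and coverage of 24.3% and 27.1%. The windows at 25300001 to 25400000, 9700001 to 9800000 and 21100001 to 21200000 followed at 21.8% ± 3.99, 20.4% ± 0.52 and 18.5% ± 2.74. The means of the first pair differed by less than their SDs and replicate 2 had them in the other order, so they cannot be ranked. The windows that followed were ordered differently in the replicates, so their order is not settled either. They were at 19.0%, 20.7% and 16.6% in replicate 1 and at 24.6%, 20.0% and 20.5% in replicate 2. A window outside these 5, 11800001 to 11900000, was at 18.2% ± 4.12 and cannot be told from the last of them. In the combined set the first of these 5 had only 8 clusters but 43.9% coverage, and the second had 23 clusters and 64.5%. The last 105 kb before the distal edge also stood high, with 6 and 7 clusters and coverage of 16.3% and 15.5%.

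On the scale of the whole arm density was somewhat lower distally, without a steady fall from section to section. In sections of 5 Mb from the proximal edge, the last one of 5.61 Mb, density was 20.3 ± 2.75, 19.3 ± 3.54, 15.6 ± 1.37, 19.0 ± 1.98 and 16.7 ± 1.64 clusters per Mb. The middle section was the lowest in each replicate, at 16.5 and 14.6 per Mb, and the proximal section the highest, at 22.3 and 18.4. The sections with means of 20.3, 19.3 and 19.0 differed from one another by less than the replicate SD. The distal part of the interval, split at its midpoint, had 0.876 ± 0.03 times the density of the proximal part. Median scores by section lay between 0.57 and 0.65 in both replicates, and median widths between 1821 and 2043 bp.

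Most clusters of each replicate were found in the other. Of the 491 members of replicate 1, 299 (60.9%, Wilson 95% interval 56.5% to 65.1%) were found in replicate 2, against 75.3% of all its clusters. Of the 412 of replicate 2, 299 (72.6%, 68.1% to 76.7%) were found in replicate 1, against 79% of all its clusters. Other arms were cut at the same distances from their ends, with nothing left out within them. The shares for replicates 1 and 2 were 62.4% and 71.1% on 2L and 60.2% and 73.3% on 3L. On the X they were 64.6% and 70.3%, so the shares on 3R lay within the range of these arms. The Wilson intervals treat clusters as independent, which they are not. Together the replicates marked 589 places on the arm, of which 284 (48.2%) were in both, 192 in replicate 1 alone and 113 in replicate 2 alone. The sequence in both was 630 kb of the 1388 kb in either, a Jaccard index (shared over joint length) of 0.454. This index was 0.498 on 2L, 0.456 on 3L and 0.488 on the X. The value on 3R was the lowest but close to that on 3L, and the index has no error to rank them by. With a start at 4 Mb it was 0.457 on 3R, and with the homeotic intervals kept in it was 0.434.

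Width went with sharing. Below 1.5 kb, 34 of 100 clusters of replicate 1 (34.0%) and 43 of 84 of replicate 2 (51.2%) were found in the other. From 2 to 3 kb the shares were 78.4% and 91.1%, and from 3 to 5 kb they were 90.2% and 94.5%. At 5 kb and above, 17 of 17 and 11 of 11 were found. A wider cluster also has more chance of touching another, and that part was not tested. Score went with sharing less evenly: among clusters in the top 25% of scores 77.2% and 91.3% were found, and among those in the lowest 25% it was 53.7% and 64.1%, while those between the lowest 25% and the median, at 50.8% and 64.1%, were no higher.

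**Figure D3:**
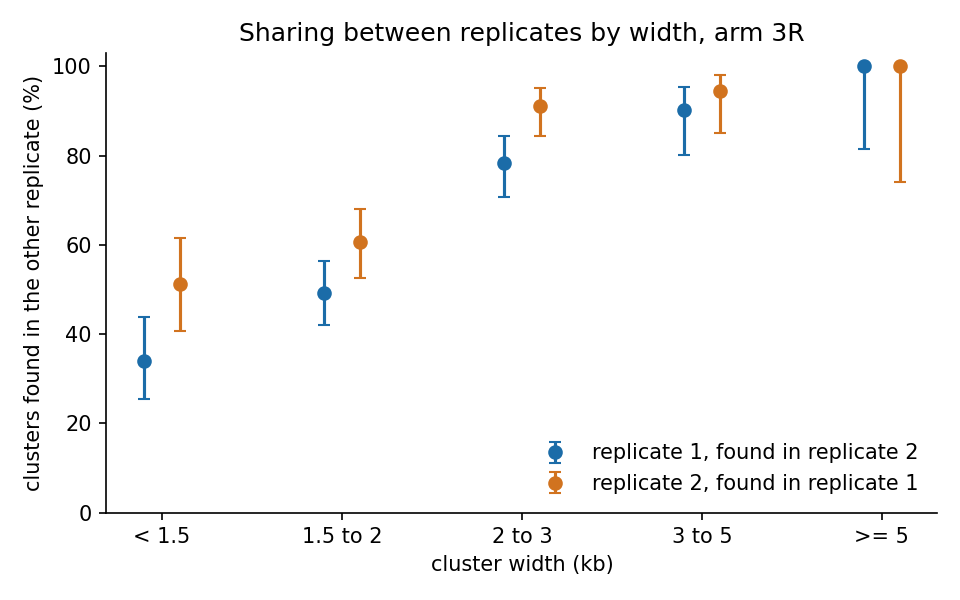
Share (%) of the clusters of each replicate that overlap a cluster of the other by at least 1 bp, by width class (kb), with Wilson 95% intervals that cover counting error only. The share goes from 34.0% and 51.2% below 1.5 kb to 90.2% and 94.5% at 3 to 5 kb.

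Clusters without a partner were the narrow ones. In replicates 1 and 2 they had median widths of 1623 and 1633 bp, against 2150 and 2063 bp for those with one, and median scores of 0.57 and 0.59 against 0.63 and 0.64. They made up 30.4% and 21.0% of the covered sequence. Of the 192 in replicate 1, 20 lay within 1 kb of a cluster of replicate 2 and 96 within 10 kb, while 27 were more than 50 kb from any. For the 113 in replicate 2 these numbers were 14, 67 and 10. The combined set held 185 of the 192 and 108 of the 113.

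Where a cluster met a single partner that met no other, the replicates could be compared cluster by cluster. There were 257 such pairs, and in 232 of them (90.3%) the overlap was at least 50% of the wider cluster. Both ends lay within 250 bp in 93 pairs (36.2%). Scores followed each other with a Spearman rho of 0.71 across the pairs and widths with a rho of 0.55. Replicate 2 had the higher score in 147 pairs (57.2%), with a median difference of 0.02, and replicate 1 had the wider cluster in 148 (57.6%).

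**Figure D4:**
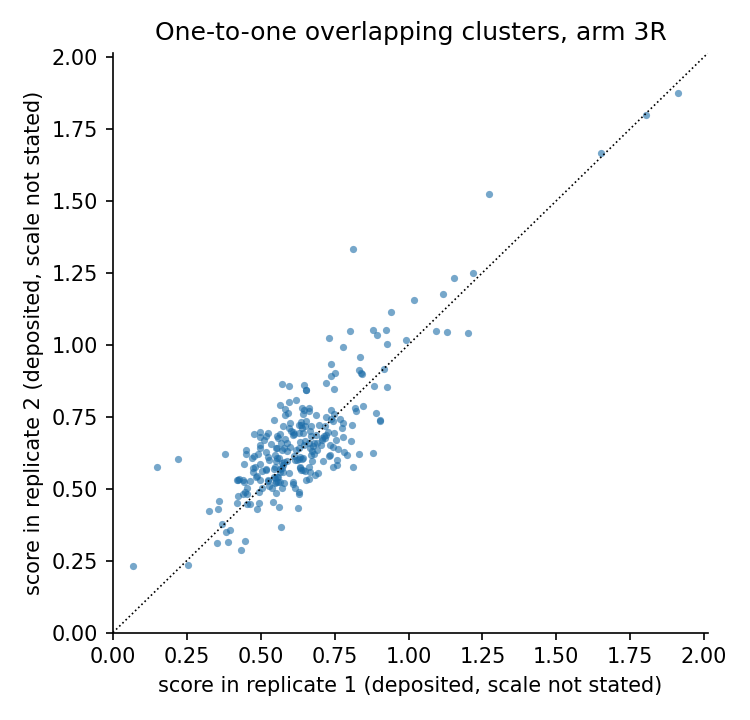
Deposited score in replicate 2 against replicate 1 for the 257 pairs of clusters on 3R that met a single partner; the dotted line marks equal scores. Most pairs lie between 0.4 and 0.8, and the few above 1.5 in both lie close to the line.

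The 284 places found in both replicates were themselves scattered. They numbered 11.4 per Mb, with a median gap of 37.2 kb, and 39 of them (13.7%) fell into 10 runs. Over the 500 kb windows they numbered 0 to 15 with a median of 5. A single window had none, 4 had 1 each, and 7 had at least 10.

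The combined set held nearly every cluster of the replicates, 484 of 491 and 407 of 412, and added many of its own. Of its 1060 members, 281 (26.5%) were found in both replicates, against 37.8% over all sequences, and 501 (47.3%) were found in neither, against 38.7%. A further 176 were found in replicate 1 alone and 102 in replicate 2 alone. Those found in both had a median width of 3022 bp and a median score of 0.53, and those found in neither 1344 bp and 0.39. The last made up 31.6% of the sequence covered by the combined members. Only 10 of them reached 3 kb, against 144 of the 281 found in both.

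Some combined clusters met several clusters of a replicate. A combined member met at least 2 members of replicate 1 in 32 cases and of replicate 2 in 28. The longest, 14.2 kb from 14201487 to 14215677 with a score of 0.60, met a pair of clusters in replicate 1 (1337 and 8288 bp) and 3 in replicate 2 (1342, 4906 and 3491 bp), which covered 67.8% and 68.6% of it. The next, 10.9 kb from 25358975 to 25369886, was covered to 34.3% ± 1.96. The others of the 5 longest, from 16853032, 4102555 and 14055658, measured 9.73, 9.65 and 8.96 kb and were covered to 85.8% ± 11.0, 63.1% ± 4.89 and 74.1% ± 20.7. The scores of these 5 were between 0.55 and 0.73, well below those of the pair of clusters near 3.5 and 26.9 Mb described above.

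Cut 2 Mb from the centromere end and 300 kb from the tip, arms 2L and 3L were close to 3R in density and spacing. Nothing was left out within 2L, 3L or the X, whereas 3R was without its homeotic intervals. With them kept in, 3R had 18.9 ± 2.18 clusters per Mb and 4.16% ± 0.50 coverage. Density was 20.2 ± 2.15 clusters per Mb on 2L and 19.4 ± 2.51 on 3L, against 18.1 ± 2.24 on 3R. These means differed by less than the replicate SD, which includes the difference in list length. Within each replicate the order of 2L, 3L and 3R was the same, at 21.7, 21.2 and 19.7 in replicate 1. In replicate 2 the values were 18.7, 17.7 and 16.6. Median gaps were 17652 ± 1612, 19700 ± 3319 and 18957 ± 963 bp. Coverage was 4.99% ± 0.49 on 2L and 4.42% ± 0.62 on 3L against 4.05% ± 0.51 on 3R, and the share of clusters in runs was 35.2% ± 3.69 and 31.5% ± 1.33 against 29.5% ± 2.30. In both measures 2L was above 3R by more than the SD of either arm, and in each replicate. The X had 36.1 ± 1.79 clusters per Mb with a median score of 0.78 in both replicates, against 0.60 and 0.62 on 3R, a difference many times the SD. In each replicate 3R had the lowest density and the lowest median score of the 4 arms compared, which did not include 2R. The order was not tested, since the arms share both libraries.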

How the data were processed

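H3K9me3 ChIP-seq of adult Oregon-R heads was analysed from 3 deposited lists of enriched clusters, 1 per ChIP replicate and 1 for the whole series; the 2 input libraries have no list of their own. Per the submitters' processing notes, Bowtie 0.12.7 was among the tools used. Per the file headers, coordinates follow FlyBase release 5. How clusters were called, with which threshold and inputs, and how the combined set was made is not given in the sources used here. Scores were used as the authors deposited them, only for describing, ranking and filtering. Starts and ends are 1-based.

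Members, widths, gaps, runs, window densities and overlaps (at least 1 bp) were computed in Python 3.11.15 (numpy 2.4.6; scipy 1.17.1; figures in matplotlib 3.10.9). A cluster was counted in the window holding its midpoint. Gaps were not counted across the left-out homeotic intervals. Values are mean ± SD over 2 ChIP replicates; no test across samples was run, since an exact permutation test over 2 libraries cannot reach a threshold. The overlap, run and shared-length code was checked on simulated lists and returned what had been planted. Clusters and windows named by position are the 5 longest and 5 highest-scoring of the combined set, the extremes of each replicate, the 5 densest and sparsest windows, the 5 longest empty intervals, the largest runs and the clusters at the edges; those with scores of at least 1 and the overlapping runs were added after their values were seen. The members and these rules were chosen with earlier results of these data known. Alternatives changed the score or width filter, the interval, the list, the run gap, the window or the overlap.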

Additional observations from a re-analysis of the deposited data

How the results depend on the processing

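Each of 11 values was recomputed under several settings, 88 values in all. Of these, the 14 that leave out a replicate cannot fall outside the SD of 2 values, and the 10 under a minimum width of 1 kb were unchanged because it removed no cluster. The 4 other values of the Jaccard index have no error to be set against. Of the remaining 60, 30 stayed within the replicate SD or the Wilson interval and 30 moved further. The distal over proximal ratio stayed below 1 under each setting. No paired analysis was possible because the input libraries that share replicate numbers with the ChIP libraries have no cluster list here. Leaving out either replicate gave 16.6 to 19.7 clusters per Mb, 3.69% to 4.42% coverage, 1887 to 1917 bp median width, 18275.5 to 19638 bp median gap, 27.9% to 31.2% of clusters in runs, a highest window 2.44 to 3.14 times the median window, and a distal over proximal ratio of 0.852 to 0.899.

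With only the members that reached their own list's median score, density was 9.08 per Mb, coverage 2.45%, median width 2324.5 bp, median gap 36870.5 bp, the share in runs 14.0%, the highest window 3.63 times the median, sharing 53.3% and 63.6%, and the Jaccard index 0.402. In the combined set density was 42.6 per Mb, coverage 9.33%, median width 1779 bp, median gap 6044 bp and the share in runs 59.4%. With the homeotic intervals kept in, median width was 1871 bp, the distal over proximal ratio 0.812 and the Jaccard index 0.434; with a start at 4 Mb the index was 0.457. Joining clusters up to 1 kb apart gave a median width of 1943 bp, a median gap of 23273.8 bp and 21.3% in runs. Run gaps of at most 5 and 20 kb gave 19.3% and 50.8% in runs. Windows of 250 kb and 1 Mb gave a highest window 4.38 and 2.06 times the median. Requiring overlap of 50% of the cluster gave 67.7% of replicate 2 found in replicate 1 and 21.8% of combined clusters in both; 50% of both widths gave 51.1% and 60.9%. For members of at least 2 kb, a setting chosen after seeing the data, density was 7.84 per Mb, coverage 2.38%, median gap 60972.5 bp, the share in runs 13.5% and the Jaccard index 0.451. The filters remove clusters by construction; for the other moves the cause was not tested.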
